A study of Mus musculus with 12 samples.

Results

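Rab proteins are small GTPases that mark the membranes of the secretory and endocytic pathways, and each one directs the budding, transport, tethering or fusion of vesicles at its own compartment. They are switched on by guanine nucleotide exchange factors (GEFs), switched off by GTPase-activating proteins (GAPs), and act through effector proteins that bind the GTP-loaded form. In the oocyte they are known for the delivery and release of cortical granules (Rab3a and Rab27a) and for the vesicles that carry actin nucleators (Rab11a). The Rab genes were taken as all rows of the count table whose symbol is Rab followed by a number, with an optional letter and digit, which gave 59 of 24562 genes. The rule uses symbols and no measured value.

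The oocytes came from CD-1 mice, an outbred strain, that received no hormones. There were 4 cohorts of 3 pools, named by postnatal day (PND): PND 13, PND 40 and, between them, the lighter and the heavier mice at day 16, PND 16 small and PND 16 large. Each pool held 18 to 45 oocytes with an intact germinal vesicle from antral follicles, stripped mechanically of cumulus cells and held in the meiotic inhibitor milrinone, so a pool is an average over oocytes of several follicles. Following the study, PND 16 large and PND 40 oocytes are called meiotically competent and PND 13 and PND 16 small oocytes non-competent (6 pools against 6). Competence is thus tied here to age and body weight and cannot be told apart from them.

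The total count ranged from 17671193 to 27418358 per pool. It was 23422996 to 27418358 in competent and 17671193 to 24762189 in non-competent pools. Levels are given as CPM, counts scaled to the total of the tested genes in each pool with TMM factors between pools of 0.955 to 1.07. All 12 oocyte markers checked, among them Gdf9, Bmp15 and Zp3, were measured, with a summed level of 14987 to 19448 CPM, and 2 of them were lower in competent oocytes. Markers of other ovarian cells were also measured. The summed level of 16 granulosa and cumulus cell markers was 652 and 755 CPM in PND 13 replicates 1 and 3 and 699 CPM in PND 16 small replicate 2, against 144 to 276 CPM in the other 9 pools, and 3 of the 16 were lower in competent oocytes and 0 higher. Counts of changed Rab genes are therefore given with and without these 3 pools. None of the granulosa markers was at 0 in all pools, whereas 2 of 6 blood and immune markers were. The summed level was 8.72 to 60.5 CPM for 10 theca and stroma markers, 85.2 to 107 CPM for 4 endothelial markers and 0.518 to 2.88 CPM for the blood and immune markers. The members of these lists differed, as did those of the granulosa list. Inha held 97.1, 143 and 130 CPM in the 3 pools of high granulosa marker level, against 2.34 to 20.7 CPM in the other 9. Igfbp5 held 112 and 131 CPM in PND 13 replicates 1 and 3 but 10.3 CPM in PND 16 small replicate 2. Cyp19a1 held 21.4, 14.5 and 22.6 CPM in the 3 pools and 20.3 to 24.3 CPM in PND 16 large. Nr5a2 was high in every pool (87.9 to 146 CPM). Pecam1 held 52.0 to 64.6 CPM and Tek 25.0 to 43.1 CPM, whereas the endothelial marker Cdh5 had at most 3 counts in any pool. Hsd3b1 held 41.2, 50.1 and 28.5 CPM in PND 13 replicates 1 and 3 and PND 16 small replicate 2. It held 1.37 to 3.26 CPM in the other 9 pools, and the theca marker Cyp17a1 had at most 6 counts.

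Most Rab genes were expressed in these oocytes. A count was found in all 12 pools for 46 of the 59, and 49 passed the filter on low counts and were tested. The 10 that did not pass were Rab7b (highest count in any pool 10), Rab15 (9), Rab19 (2), Rab20 (24), Rab26 (0), Rab33a (8), Rab37 (3), Rab39 (2), Rab3c (7) and Rab42 (1). Per kilobase of exon, which allows genes to be compared, mean levels of the tested members spread over 1950-fold. The 5 highest were Rab38 with 122 CPM per kilobase, Rab7 with 71.2, Rab11a with 59.4, Rab5c with 53.6 and Rab10 with 52.2, and together they made up 44.5% of the Rab total on this scale.

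**Figure D1:**
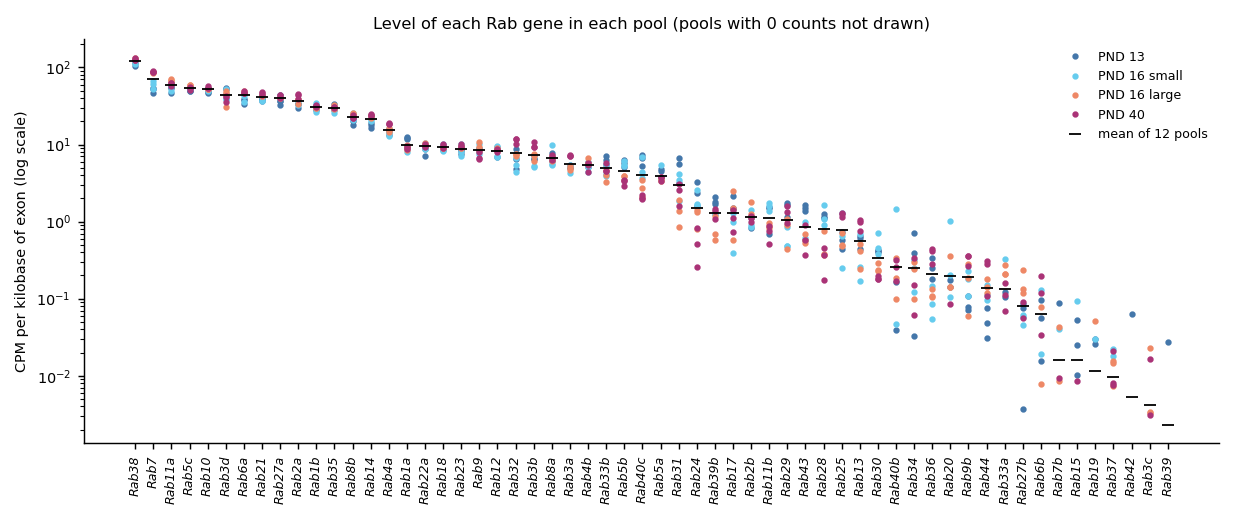
CPM per kilobase of exon (log scale) of the Rab genes in each of the 12 pools, ordered by the mean over pools (black bars), with points coloured by cohort and pools with 0 counts left out. Rab38 stands highest at 122 CPM per kilobase, and the points of the high members lie close together whereas those of the low members spread widely.

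Rab38, which works in the biogenesis of lysosome-related organelles, measured 179, 205 and 164 CPM at PND 13, 195, 174 and 189 in PND 16 small, 202, 196 and 207 in PND 16 large and 210.4, 195 and 198 at PND 40. The competence groups overlapped (log2 fold change 0.13 ± 0.06 SE, adjusted p = 0.12 by edgeR's quasi-likelihood test, competent vs non-competent, n = 6 pools each). Rab11a, the GTPase of recycling endosomes, measured 167, 164 and 138 CPM at PND 13, 149, 182 and 171 in PND 16 small, 207, 197 and 209 in PND 16 large and 188, 188 and 173 at PND 40. The 3 PND 16 large pools were above all 6 non-competent pools, whereas PND 40 replicate 3 lay within the non-competent range (log2 fold change 0.26 ± 0.07 SE, adjusted p = 0.0153). Rab5c, an early endosome GTPase, measured 112, 109 and 108 CPM at PND 13, 115, 116 and 115 in PND 16 small, 129, 130.2 and 125 in PND 16 large and 123, 111 and 117 at PND 40. Its non-competent pools lay between 108 and 116 CPM and PND 40 reached down to 111 (log2 fold change 0.12 ± 0.06 SE, adjusted p = 0.103). Rab10, which serves exocytosis and basolateral transport, measured 166, 177 and 169 CPM at PND 13, 188, 186 and 176 in PND 16 small, 186, 186 and 187 in PND 16 large and 189.9, 189.6 and 200.5 at PND 40. The competence groups overlapped here too (log2 fold change 0.10 ± 0.05 SE, adjusted p = 0.141). Rab7, the remaining member of the 5, changed and is described below.

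The main question of the design is what separates the cohorts called competent from those called non-competent. In the study, competence means that an oocyte matured in culture arrives at metaphase II. The study reports that very few oocytes of its youngest age range do so, and more in the older ranges. For the lighter and heavier mice of the same age, it states a difference without showing the data, from only 2 mice in each group. For the youngest and oldest cohorts the scores are those of wider age ranges. No such score is reported for the sequenced oocytes themselves, so the labels of competence rest on limited data. A gene was called changed at an adjusted p of at most 0.05 over the 13943 genes tested together with at least a 1.5-fold difference. Rab7 and Rab32, GTPases of late endosomes and lysosome-related organelles, were higher in competent oocytes, and Rab5b, Rab11b, Rab24, Rab28, Rab30, Rab31, Rab40c and Rab43 were lower. That was 10 of 49 members (20.4%) beside 15% of all genes tested, with 2 higher beside a background of 3.78% and 8 lower beside 11.2%. The share of members called was thus near that of all genes, and no test of the list was made. Counted by adjusted p alone, 16 members passed (8 higher and 8 lower), 32.7% beside 30.7% of all genes. The 6 additional ones were Rab2a, Rab3b, Rab6a, Rab11a, Rab14 and Rab21, each higher in competent oocytes by less than 1.5-fold. In 8 members (16.3%) no competent pool overlapped with a non-competent pool, beside 14.7% of all genes, and these were Rab7, Rab6a and Rab21 on the higher side and Rab5b, Rab24, Rab28, Rab30 and Rab40c on the lower side. Without the 3 pools of high granulosa marker level, 5 members remained called, Rab7 higher and Rab5b, Rab28, Rab30 and Rab40c lower, all 5 of them among the 10. In that fit 5 of 50 members tested (10%) stood beside 10.7% of all genes, so the share called was lower in both. All 3 pools left out are non-competent, so the fit has fewer non-competent pools and less power to call a gene.

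**Figure D2:**
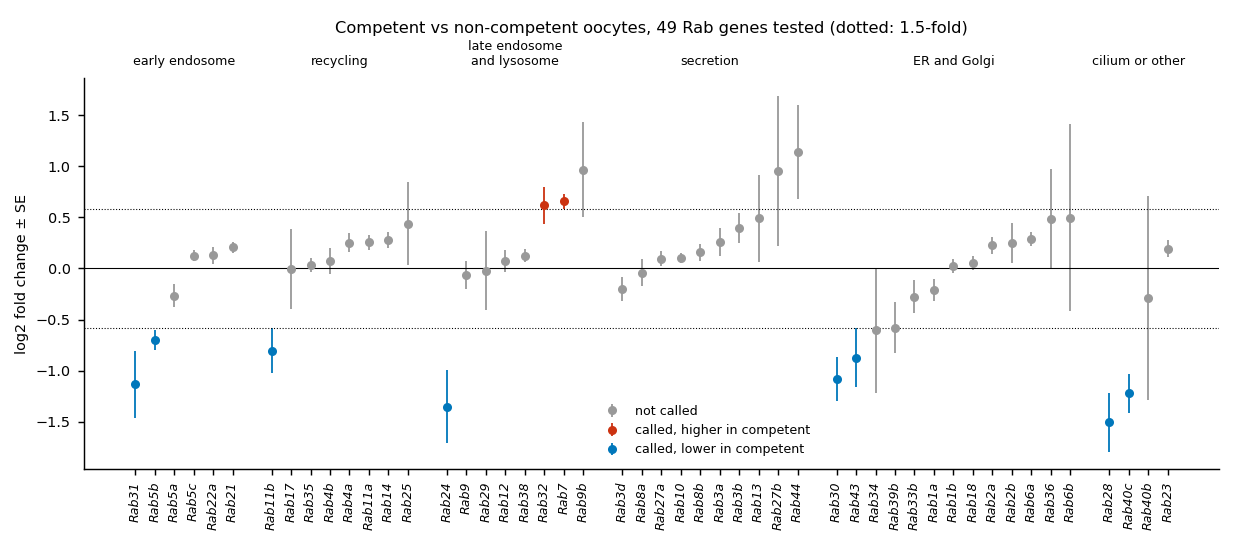
Log2 fold change of the 49 tested Rab genes in competent vs non-competent oocytes (points, with bars of 1 SE), grouped by the compartment they serve, with dotted lines at 1.5-fold. Of the called genes, 2 lie above the upper line, both of the late endosome and lysosome group, and 8 lie below the lower line.

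Calls were rarer among members of high level, as they were among all genes tested. Of the 17 members with a mean of at least 50 CPM, 1 was called (Rab7), where 4.66% of all genes at that level were. Of the 14 members between 10 and 50 CPM, 4 were called, beside 16.5% of genes, and of the 18 under 10 CPM, 5 were called, beside 20.8%. Summed over all members, Rab transcripts made up 2815 to 2928 CPM in competent and 2473 to 2724 CPM in non-competent pools, without overlap, but as a raw share of counts the ranges met (0.272% to 0.291% and 0.251% to 0.274%).

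The calls on Rab7, Rab5b, Rab40c, Rab28 and Rab30 were kept in each of the 12 fits that left out 1 pool and in each of 9 other settings. The promoters of 4 of these 5 are printed here because these genes carry the result with its opposite directions, Rab7 higher and the other 3 lower. For Rab30 no promoter entry was available. The sequences are RefSeq's on build GRCm38.p6, 300 bases each, from 250 before to 50 after the outermost transcript start, 5′ to 3′ on the strand of the gene, with capitals marking each CCAAT box or GGGCGG box (the binding letters of NF-Y and of Sp1-type factors) on either strand.
Rab7 (chr6:88045221-88045520, minus strand): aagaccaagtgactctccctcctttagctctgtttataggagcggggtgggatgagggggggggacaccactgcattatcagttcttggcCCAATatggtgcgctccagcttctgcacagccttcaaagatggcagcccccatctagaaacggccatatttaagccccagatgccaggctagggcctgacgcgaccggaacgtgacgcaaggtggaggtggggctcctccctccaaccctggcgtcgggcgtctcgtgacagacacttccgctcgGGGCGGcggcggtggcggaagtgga
Rab5b (chr10:128696219-128696518, minus strand): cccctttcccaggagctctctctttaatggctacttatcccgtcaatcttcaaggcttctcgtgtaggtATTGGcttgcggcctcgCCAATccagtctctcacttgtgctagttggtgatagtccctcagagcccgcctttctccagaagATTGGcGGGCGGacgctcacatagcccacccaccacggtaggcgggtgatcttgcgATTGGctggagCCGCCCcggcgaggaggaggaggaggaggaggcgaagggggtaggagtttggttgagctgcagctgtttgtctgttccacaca
Rab40c (chr17:25919665-25919964, minus strand): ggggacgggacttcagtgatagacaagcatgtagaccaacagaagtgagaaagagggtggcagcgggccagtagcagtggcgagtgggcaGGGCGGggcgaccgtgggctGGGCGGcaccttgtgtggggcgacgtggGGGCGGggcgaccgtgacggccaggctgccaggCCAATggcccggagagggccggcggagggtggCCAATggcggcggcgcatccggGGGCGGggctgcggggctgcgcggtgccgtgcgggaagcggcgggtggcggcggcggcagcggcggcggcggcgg
Rab28 (chr5:41708130-41708429, minus strand): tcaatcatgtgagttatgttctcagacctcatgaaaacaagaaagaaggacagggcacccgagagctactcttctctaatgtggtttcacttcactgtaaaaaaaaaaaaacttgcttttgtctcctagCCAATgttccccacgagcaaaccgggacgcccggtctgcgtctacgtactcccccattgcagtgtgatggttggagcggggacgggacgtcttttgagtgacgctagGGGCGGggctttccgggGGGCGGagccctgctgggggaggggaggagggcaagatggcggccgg
The Rab7 promoter held 1 CCAAT and 1 GGGCGG, that of Rab5b 4 and 2, that of Rab40c 2 and 4, and that of Rab28 1 and 2, counting both strands and matches that overlap. The third motif searched, the E-box CACGTG, was in none of the 4. Over 48 Rab promoters in the table, 23 held CCAAT (47.9%), 34 held GGGCGG (70.8%) and 5 held CACGTG (10.4%), and over all 27025 promoters of the same length in the table the shares were 38.0%, 35.9% and 7.24%. Both motifs found at Rab7 were thus also in the promoters of the 3 lower genes, and a match shows letters and not binding. The 27025 promoters were not filtered by expression or gene type, whereas all Rab genes are annotated as protein coding.

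**Figure D3:**
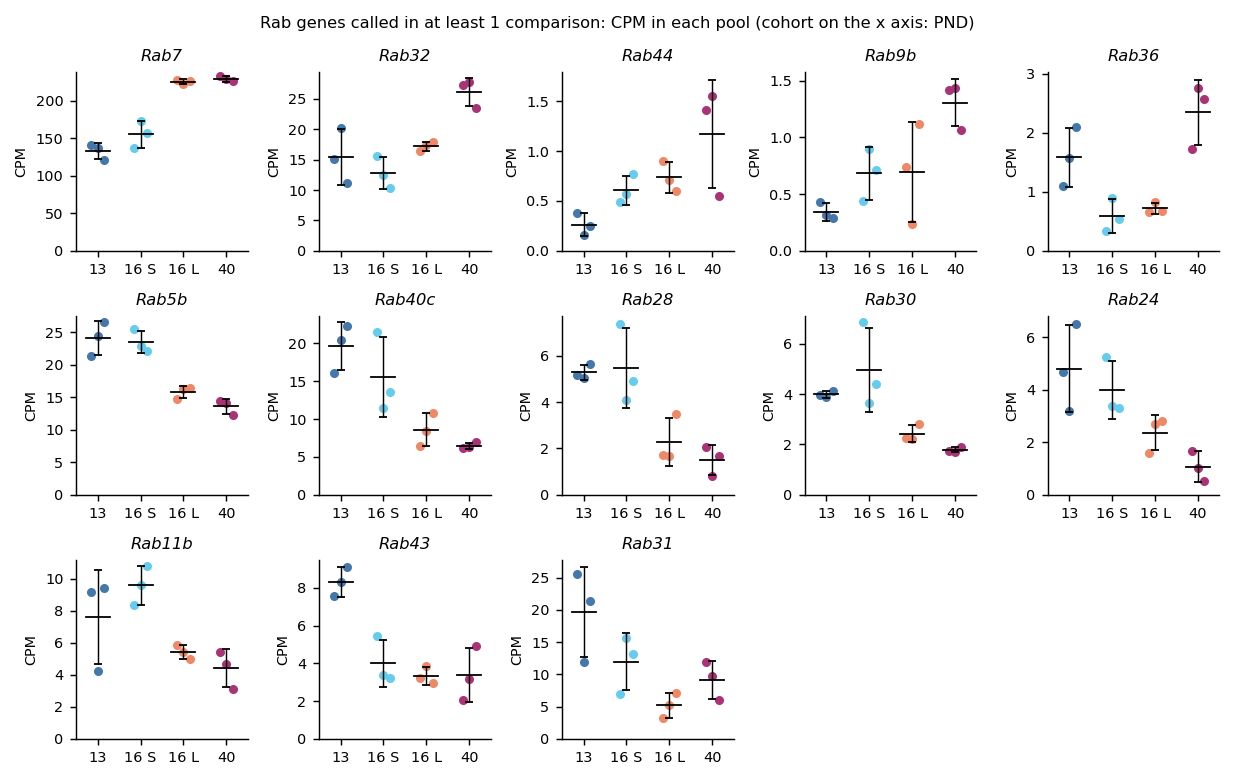
CPM (y axis, each panel on its own scale from 0) in each pool, by cohort on the x axis (16 S and 16 L are the small and large mice at PND 16), for the 13 Rab genes called in at least 1 comparison, with the mean and SD of each cohort. Rab7 steps up between PND 16 small (136 to 172 CPM) and PND 16 large (222 to 228 CPM), while Rab5b, Rab40c, Rab28, Rab30 and Rab24 are lower in every competent pool than in every non-competent pool.

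Among the Rab genes of late endosomes, lysosomes, autophagy and related organelles, 2 of 8 tested were higher in competent oocytes and 1 was lower. Over all genes tested, 3.78% were called higher and 11.2% lower. The groups by compartment hold 4 to 13 tested members each, and no test of them was made. Rab7 (chr6:87999106-88045270, minus strand, in GRCm38 as are all gene positions given here), which drives the maturation of late endosomes and their fusion with lysosomes, measured 141, 137 and 121 CPM at PND 13, 136, 172 and 158 in PND 16 small, 228, 222 and 226 in PND 16 large and 233, 229 and 226 at PND 40. Every competent pool was above every non-competent pool, and the means were 227 ± 3.63 CPM in competent and 144 ± 18.2 CPM in non-competent oocytes (SD), a 1.58-fold difference (log2 fold change 0.66 ± 0.07 SE, adjusted p = 4.45e-05). Between the cohorts of the same age the difference had the same direction but was under 1.5-fold (PND 16 large vs PND 16 small, log2 fold change 0.53 ± 0.08 SE, adjusted p = 0.00282). PND 40 and PND 16 large were almost level at 229 ± 3.499 and 225 ± 3.07 CPM (log2 fold change 0.02 ± 0.08 SE, adjusted p = 0.905). An antisense gene, Gm5577, overlaps 204 exon bases of Rab7.

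Rab32 (chr10:10545002-10558265, minus strand), which sorts cargo to melanosomes and related organelles, measured 15.05, 20.2 and 11.1 CPM at PND 13, 15.6, 12.6 and 10.3 in PND 16 small, 16.4, 17.4 and 17.9 in PND 16 large and 27.37, 27.7 and 23.5 at PND 40. The PND 40 pools were above all others, while PND 16 large overlapped with PND 13, so the difference between the competence groups (log2 fold change 0.62 ± 0.18 SE, adjusted p = 0.0204) came with overlap. Leaving out PND 13 replicate 3, PND 40 replicate 1 or 2, or PND 16 small replicate 2 or 3 ended this call, by size or by adjusted p (log2 fold change 0.53 to 0.57, adjusted p = 0.0421 to 0.0527), as did leaving out the 3 pools of high granulosa marker level (0.50, adjusted p = 0.17). In PND 40 vs PND 13 it was higher (log2 fold change 0.76 ± 0.20 SE, adjusted p = 0.0103) and fell below 1.5-fold without PND 13 replicate 3 (0.57, adjusted p = 0.0474) and without the 3 pools (0.37, adjusted p = 0.308).

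Rab24 (chr13:55319743-55321946, minus strand), an atypical Rab linked to autophagy, moved the other way and measured 4.68, 3.20 and 6.51 CPM at PND 13, 5.25, 3.37 and 3.32 in PND 16 small, 1.60, 2.68 and 2.83 in PND 16 large and 1.67, 1.04 and 0.514 at PND 40. All competent pools were below all non-competent pools, and the lowest value was in PND 40 (log2 fold change -1.35 ± 0.36 SE, adjusted p = 0.0107). In PND 40 vs PND 13 the difference was 4.47-fold (log2 fold change -2.16 ± 0.44 SE, adjusted p = 0.0022). Without the 3 pools of high granulosa marker level the call was lost in both comparisons (adjusted p = 0.0815 and 0.0883), with log2 fold changes of -1.18 and -1.58. Of its 2015 exon bases, 1258 overlap the opposite-strand gene Prelid1. The libraries kept strand, but the strand setting of the counting is not given in the sources used here, so reads of the 2 genes may not have been told apart.

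Rab9b (chrX:136858147-136868755, minus strand), a paralog of the endosome-to-Golgi GTPase Rab9, was low and measured 0.430, 0.313 and 0.287 CPM at PND 13, 0.437, 0.901 and 0.712 in PND 16 small, 0.736, 0.237 and 1.11 in PND 16 large and 1.42, 1.43 and 1.07 at PND 40. The PND 40 pools were above the PND 13 pools (log2 fold change 1.92 ± 0.62 SE, adjusted p = 0.0292) on at most 36 counts per pool, and leaving out any of the 6 pools compared ended the call (adjusted p = 0.0508 to 0.0942). Its paralog Rab9 was not called in any comparison (log2 fold change -0.07 ± 0.14 SE, adjusted p = 0.745 in competent vs non-competent).

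In the early endosome group, 2 of 6 tested members were lower in competent oocytes and 0 were higher, beside 11.2% and 3.78% of all genes. Rab5b (chr10:128677175-128696264, minus strand), which with its paralogs Rab5a and Rab5c controls the fusion of endocytic vesicles with early endosomes, measured 21.4, 24.5 and 26.6 CPM at PND 13, 25.5, 22.9 and 22.2 in PND 16 small, 14.7, 16.3 and 16.5 in PND 16 large and 14.5, 14.2 and 12.3 at PND 40. The pools fell into separate ranges by competence, at 14.7 ± 1.53 CPM in competent and 23.9 ± 2.03 CPM in non-competent oocytes (log2 fold change -0.70 ± 0.10 SE, adjusted p = 0.000193). PND 16 large was below PND 16 small by just under 1.5-fold (log2 fold change -0.57 ± 0.13 SE, adjusted p = 0.012).

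Rab31 (chr17:65651729-65772752, minus strand), which acts between the Golgi and early endosomes, measured 25.5, 11.9 and 21.5 CPM at PND 13, 6.997, 15.7 and 13.2 in PND 16 small, 3.27, 5.25 and 7.17 in PND 16 large and 11.8, 9.72 and 5.99 at PND 40. Levels varied widely within each cohort and the competence groups overlapped (log2 fold change -1.13 ± 0.33 SE, adjusted p = 0.0181). The 2 PND 13 pools and the PND 16 small pool of high granulosa marker level held the highest values of their cohorts, and without these 3 pools the log2 fold change was -0.57 (adjusted p = 0.283). PND 13 replicate 2 had the lowest marker sum of all pools (144 CPM) and 11.92 CPM of Rab31, above the highest competent pool (11.84 CPM). Marker sums were lower at PND 40 (174 to 196 CPM) than in PND 16 large (207 to 220 CPM). Mean Rab31 was higher at PND 40 (9.18 CPM) than in PND 16 large (5.23 CPM). In a pool, fewer cells of a type and less RNA per cell cannot be told apart. The part of granulosa RNA in the Rab31 result was not tested further. In PND 40 vs PND 13 (log2 fold change -1.10 ± 0.38 SE, adjusted p = 0.0457) the call ended without PND 13 replicate 1 or 3 or without any 1 of the PND 40 pools (adjusted p = 0.0532 to 0.154).

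**Figure D4:**
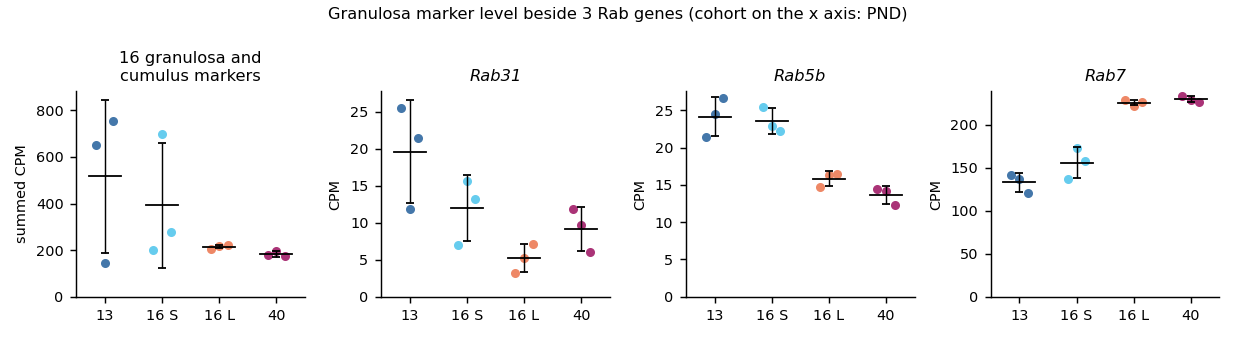
Summed CPM of 16 granulosa and cumulus cell markers (left) and CPM of Rab31, Rab5b and Rab7 in each pool by cohort, with mean and SD. The 3 pools of high marker level (652, 755 and 699 CPM) hold the highest Rab31 values of their cohorts (25.5, 21.5 and 15.7 CPM), whereas Rab5b stays between 21.4 and 26.6 CPM in all 6 non-competent pools. PND 13 replicate 2, with the lowest marker level (144 CPM), holds 11.92 CPM of Rab31, above every competent pool (at most 11.84 CPM).

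Rab5a, the best studied GTPase of the early endosome, measured 19.3, 24.1 and 25.3 CPM at PND 13, 19.6, 18.9 and 28.4 in PND 16 small, 17.6, 19.1 and 18.1 in PND 16 large and 19.99, 20.2 and 17.6 at PND 40. The groups overlapped and it was not called (log2 fold change -0.27 ± 0.11 SE, adjusted p = 0.0872). The PND 16 large and PND 40 pools spanned 17.6 to 20.2 CPM and the PND 13 and PND 16 small pools 18.9 to 28.4 CPM. Rab21, which carries integrins, differed little in size but without overlap. Competent pools held 216 to 239.7 CPM and non-competent pools 185 to 211 CPM, for a difference of 1.15-fold (adjusted p = 0.00799).

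Of the 8 tested genes of recycling endosomes, 1 was lower and 0 were higher, beside 11.2% and 3.78% of all genes. Rab11b (chr17:33742484-33760530, minus strand), a paralog of Rab11a, measured 9.17, 4.22 and 9.42 CPM at PND 13, 8.36, 9.62 and 10.8 in PND 16 small, 5.85, 5.45 and 5.02 in PND 16 large and 5.45, 4.66 and 3.12 at PND 40. PND 13 replicate 2 was as low as the competent pools, so the groups overlapped, and the call (log2 fold change -0.80 ± 0.22 SE, adjusted p = 0.0124) was lost without the 3 pools of high granulosa marker level (-0.65, adjusted p = 0.131). Rab14, which moves cargo between the Golgi and endosomes and had the largest share of the Rab total in CPM (10.8%), measured 241, 256 and 224 CPM at PND 13, 272, 293 and 312 in PND 16 small, 331, 296 and 317 in PND 16 large and 333, 317 and 340.5 at PND 40. Its PND 13 pools were the lowest and the other 3 cohorts formed a range from 272 to 340.5 CPM (log2 fold change 0.46 ± 0.07 SE, adjusted p = 0.000495 in PND 40 vs PND 13, log2 fold change 0.28 ± 0.08 SE, adjusted p = 0.0138 in competent vs non-competent).

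Of the 13 tested genes of traffic between the ER and the Golgi, 2 were lower and 0 were higher, beside 11.2% and 3.78% of all genes. Rab30 (chr7:92741603-92844535, plus strand), a Golgi GTPase, measured 3.96, 3.87 and 4.13 CPM at PND 13, 6.85, 3.65 and 4.39 in PND 16 small, 2.25, 2.21 and 2.83 in PND 16 large and 1.76, 1.71 and 1.91 at PND 40. All competent pools were at or below 2.83 CPM and all non-competent pools at or above 3.65 CPM (log2 fold change -1.08 ± 0.22 SE, adjusted p = 0.00191). Rab43 (chr6:87788853-87812164, minus strand), which serves the transport of receptors out of the ER, measured 7.55, 8.32 and 9.13 CPM at PND 13, 5.44, 3.37 and 3.20 in PND 16 small, 3.23, 3.87 and 2.95 in PND 16 large and 2.06, 3.19 and 4.92 at PND 40. Here the PND 13 pools stood alone: the other 3 cohorts overlapped, and the difference by competence (log2 fold change -0.87 ± 0.29 SE, adjusted p = 0.0326) was smaller than that of PND 40 vs PND 13 (log2 fold change -1.29 ± 0.31 SE, adjusted p = 0.00659). Leaving out any PND 13 pool, PND 16 large replicate 1 or 3, or PND 40 replicate 1 or 2 ended the competence call (adjusted p = 0.0569 to 0.0852), as did leaving out the 3 pools of high granulosa marker level (-0.75, adjusted p = 0.125). Of its 5526 exon bases, 4164 are shared with Gm45140, a gene of the same strand, so its counts are uncertain.

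Rab6a, the main GTPase of the Golgi, was also higher but by less than 1.5-fold and measured 143, 144 and 125 CPM at PND 13, 134, 169 and 158 in PND 16 small, 186, 173 and 177 in PND 16 large and 176, 172 and 182 at PND 40. The competent pools, from 172 to 186 CPM, were all above the non-competent pools, from 125 to 169 CPM (log2 fold change 0.29 ± 0.07 SE, adjusted p = 0.00594). An opposite-strand gene, Mrpl48, overlaps 708 exon bases of Rab6a. Rab36 (chr10:75037058-75054748, plus strand), a GTPase of the Golgi and of lysosome positioning, measured 1.10, 1.56 and 2.09 CPM at PND 13, 0.340, 0.901 and 0.534 in PND 16 small, 0.655, 0.829 and 0.677 in PND 16 large and 1.72, 2.75 and 2.57 at PND 40. It was low in both PND 16 cohorts and higher at both PND 13 and PND 40, and it was the member called in PND 40 vs PND 16 large (log2 fold change 1.70 ± 0.45 SE, adjusted p = 0.0405). That call was on 7 to 70 counts per pool and was lost when any 1 of the 6 pools was left out (adjusted p = 0.0697 to 0.145).

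In the last group, of 4 tested genes of the cilium or of other functions, 2 were lower in competent oocytes, beside 11.2% of all genes. Rab40c (chr17:25882114-25919727, minus strand), a Rab with a SOCS box that recruits a ubiquitin ligase, measured 16.1, 20.4 and 22.3 CPM at PND 13, 21.5, 11.5 and 13.6 in PND 16 small, 6.46, 8.48 and 10.9 in PND 16 large and 6.13, 6.33 and 6.95 at PND 40. Its competent pools ended at 10.9 CPM and its non-competent pools began at 11.5 CPM (log2 fold change -1.22 ± 0.19 SE, adjusted p = 0.000422). The difference in PND 40 vs PND 13 was 3.03-fold (log2 fold change -1.60 ± 0.24 SE, adjusted p = 0.000359), and an antisense gene, Gm16278, overlaps 103 of its exon bases. Rab28 (chr5:41624976-41708157, minus strand), which travels along cilia in other cells, measured 5.16, 5.04 and 5.65 CPM at PND 13, 7.39, 4.08 and 4.92 in PND 16 small, 1.72, 1.66 and 3.46 in PND 16 large and 2.06, 0.796 and 1.65 at PND 40. The competence groups did not overlap, and PND 13 and PND 16 small did (log2 fold change -1.504 ± 0.29 SE, adjusted p = 0.00138).

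None of the 10 tested genes of regulated and constitutive secretion was called in competent vs non-competent oocytes, where 15% of all genes were. No test of this group was made. Rab27a, which brings cortical granules to the oocyte cortex, measured 144, 126 and 141 CPM at PND 13, 169, 169 and 156 in PND 16 small, 154, 158 and 159 in PND 16 large and 154, 170.0 and 172 at PND 40. Its PND 13 pools were lowest and the other 3 cohorts overlapped, with a difference by competence of 0.10 ± 0.07 SE on the log2 scale (adjusted p = 0.351) and of 0.27 ± 0.07 SE in PND 40 vs PND 13 (adjusted p = 0.012). Rab3a, which acts in cortical granule exocytosis, measured 11.4, 12.2 and 10.97 CPM at PND 13, 12.2, 9.53 and 11.8 in PND 16 small, 10.5, 11.8 and 11.1 in PND 16 large and 16.5, 15.6 and 15.8 at PND 40. The 3 PND 40 pools were above the other 9 pools, whose values overlapped (log2 fold change 0.52 ± 0.14 SE, adjusted p = 0.0422 in PND 40 vs PND 16 large). Its paralog Rab3b moved in the same comparison by a like amount (log2 fold change 0.51 ± 0.14 SE, adjusted p = 0.0491), and both differences were under 1.5-fold. Rab44 (chr17:29114145-29148980, plus strand), a large Rab with calcium-binding motifs known from granulocytes and mast cells, measured 0.382, 0.156 and 0.246 CPM at PND 13, 0.486, 0.569 and 0.771 in PND 16 small, 0.900, 0.710 and 0.597 in PND 16 large and 1.42, 1.55 and 0.551 at PND 40. PND 40 was above PND 13 in all pools (log2 fold change 2.16 ± 0.61 SE, adjusted p = 0.0155), on at most 39 counts per pool, and the call ended without PND 13 replicate 2 or 3 or PND 40 replicate 1 or 2 (adjusted p = 0.0522 to 0.0705).

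Across the full span of ages, PND 40 vs PND 13 (n = 3 pools each), 11 of 49 members were called beside 18.9% of all genes. Rab7, Rab9b, Rab32 and Rab44 were higher, and Rab5b, Rab24, Rab28, Rab30, Rab31, Rab40c and Rab43 were lower. The log2 fold changes not given above were 0.79 ± 0.09 SE for Rab7 (adjusted p = 4.47e-05), -0.83 ± 0.13 SE for Rab5b (adjusted p = 0.000371), -1.81 ± 0.39 SE for Rab28 (adjusted p = 0.00348) and -1.15 ± 0.28 SE for Rab30 (adjusted p = 0.00707). By adjusted p alone 21 members passed, 13 higher and 8 lower, beside 33.1% of all genes. Among those under 1.5-fold, Rab1a, which carries cargo from the ER to the Golgi, was lower (log2 fold change -0.40 ± 0.10 SE, adjusted p = 0.00942), and Rab2a, Rab3a, Rab3b, Rab4a, Rab6a, Rab10, Rab14, Rab21 and Rab27a were higher by 0.18 to 0.52 on the log2 scale. Without the 3 pools of high granulosa marker level, which leaves 1 PND 13 pool, assumed to vary like the pools of other cohorts, 3 of 50 members (6%) were called beside 10.1% of all genes: Rab7 higher, and Rab5b and Rab40c lower. Of the 8 calls lost, those of Rab28 (log2 fold change -1.74), Rab30 (-1.10), Rab43 (-1.29), Rab44 (2.87) and Rab9b (2.04) kept a difference about as large or larger, with adjusted p = 0.051 to 0.182. Those of Rab24 (-1.58), Rab31 (-0.38) and Rab32 (0.37) were smaller than with all pools. This comparison and the one by competence share the PND 13 and PND 40 pools, so they are not independent.

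Between large and small mice of the same age, PND 16 large vs PND 16 small, Rab28, Rab30 and Rab40c were lower and 0 members were higher, 3 of 49 beside 6.19% of all genes. The log2 fold changes were -1.26 ± 0.38 SE for Rab28 (adjusted p = 0.0478), -1.03 ± 0.28 SE for Rab30 (adjusted p = 0.0301) and -0.85 ± 0.24 SE for Rab40c (adjusted p = 0.0356). Each of the 3 calls ended when any of 4 of the 6 pools was left out, among them PND 16 large replicates 1 and 2 and PND 16 small replicate 1 for all 3 genes, with PND 16 small replicate 3 for Rab28 and Rab40c and PND 16 large replicate 3 for Rab30 (adjusted p from 0.0512 to 0.189). PND 16 small replicate 1 held the highest value of all 12 pools for Rab28 and Rab30. Without PND 16 small replicate 2, the pool of high granulosa marker level, 5 of 50 members (10%) were called beside 7.99% of all genes: Rab7 higher and Rab5b, Rab28, Rab30 and Rab40c lower. Without all 3 such pools Rab28 was not called, with a log2 fold change of -1.43 (adjusted p = 0.0531), larger in size than with all pools.

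The other cohort pairs differed little. In PND 40 vs PND 16 large, 1 member was called, Rab36, beside 3.66% of all genes. In PND 16 small vs PND 13, edgeR called 0 of 49 beside 0.373% of all genes, and DESeq2 called 1, Rab43, beside 2.59% of all genes. In this pair Rab1a, Rab14 and Rab27a had the smallest adjusted p of all members (0.0672, 0.0693 and 0.0785), with log2 fold changes of -0.41, 0.28 and 0.26, and they are named after their values were seen. Leaving out PND 16 small replicate 1 gave 3 calls of 50 members (6%), Rab29, Rab33b and Rab43, all lower, beside 5.7% of all genes, where 817 were called in place of 52.

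In 6 pairs, close paralogs were compared by their log2 ratio within each pool, which does not depend on scaling between pools. Other close paralogs, such as Rab1a/Rab1b and the pairs with Rab5b, were not compared in this way. The ratio of Rab11a to Rab11b was 5.32 ± 0.25 (SD) in competent and 4.28 ± 0.50 in non-competent pools, a difference of 1.03 (two-sided exact permutation test, p = 0.00866, adjusted p = 0.0519 over 6 pairs). The ratio of Rab5a to Rab5c was -2.71 ± 0.15 and -2.33 ± 0.27, a difference of -0.37 (exact permutation p = 0.0173, adjusted p = 0.0519). Neither passed the threshold after adjustment, and the ranges overlapped in both pairs. The permutation shuffled single pools, whereas competence was assigned by cohort. Its p-values therefore treat the 3 pools of a cohort as independent replicates of competence. With 1 pool left out, by the same exact test, Rab5a/Rab5c passed in 4 of 12 cases (without PND 13 replicate 1, PND 40 replicate 2 or PND 16 small replicate 1 or 2), with adjusted p = 0.0325 to 0.117 over the 12. Rab11a/Rab11b passed in 5 of 12 (the same 4 and PND 13 replicate 2), with exact adjusted p = 0.013 to 0.0649. For Rab4a/Rab4b, Rab6a/Rab6b, Rab8a/Rab8b and Rab27a/Rab27b the differences were 0.18, 0.12, -0.17 and -0.33, with adjusted p = 0.529 to 0.913 by the same exact test. Rab6b and Rab27b had 0 counts in at least 1 pool, which widens the last ratios.

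The genes that act on Rab proteins were counted in the same way in competent vs non-competent oocytes. Of 34 tested GEFs, 4 were lower and 0 higher, and of 40 tested GAPs, 3 were lower and 0 higher, 11.8% and 7.50% beside the 15% of all genes. Of 7 tested genes of prenylation, membrane extraction and escort, 1 was lower, and of 46 tested effectors 6 were higher and 4 lower (21.7%).

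Among GEFs, Rin1, which activates Rab5, measured 4.63, 5.28 and 5.08 CPM at PND 13, 4.32, 0.948 and 2.91 in PND 16 small, 1.19, 1.74 and 1.63 in PND 16 large and 1.37, 2.47 and 2.43 at PND 40. PND 13 was highest and PND 16 small replicate 2 was below all competent pools (log2 fold change -1.10 ± 0.35 SE, adjusted p = 0.028). The call ended without any PND 13 pool, PND 16 large replicate 1 or PND 40 replicate 1 (adjusted p = 0.0552 to 0.0637). Dennd1b, an activator of Rab35, measured 13.6, 11.8 and 13.3 CPM at PND 13, 11.4, 8.91 and 14.4 in PND 16 small, 7.98, 7.46 and 7.64 in PND 16 large and 4.72, 4.46 and 5.55 at PND 40. All competent pools were lower (log2 fold change -0.95 ± 0.18 SE, adjusted p = 0.00131). Dennd5a, which binds Rab6, measured 44.4, 44.4 and 39.4 CPM at PND 13, 36.7, 36.0 and 31.0 in PND 16 small, 16.3, 21.4 and 18.5 in PND 16 large and 26.8, 33.1 and 25.02 at PND 40. PND 40 replicate 2 reached into the non-competent range (log2 fold change -0.72 ± 0.16 SE, adjusted p = 0.00324). Rab3ip, an activator of Rab8 that was added after its values were seen, was the remaining called GEF (log2 fold change -0.62 ± 0.14 SE, adjusted p = 0.00536), and it fell under 1.5-fold without PND 13 replicate 2 or 3, PND 40 replicate 3 or PND 16 small replicate 1 (-0.58 to -0.56).

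The called GAPs were Tbc1d17, Tbc1d22a and Evi5l, which carry the catalytic TBC domain. Tbc1d17 measured 2.96, 4.61 and 3.81 CPM at PND 13, 2.82, 2.23 and 2.43 in PND 16 small, 1.31, 1.89 and 1.63 in PND 16 large and 0.429, 1.23 and 0.845 at PND 40. Its competent and non-competent pools did not overlap (log2 fold change -1.36 ± 0.33 SE, adjusted p = 0.00648). Tbc1d22a also separated the groups, at 4.59 ± 1.05 CPM in competent and 9.51 ± 1.98 CPM in non-competent oocytes (log2 fold change -1.05 ± 0.19 SE, adjusted p = 0.00102). For Evi5l the means were 7.02 ± 0.705 and 13.1 ± 3.52 CPM, with PND 16 small replicate 3 inside the competent range (log2 fold change -0.90 ± 0.18 SE, adjusted p = 0.00194). Chml, an escort protein that presents new Rab proteins for prenylation, was lower at 13.0 ± 2.93 against 23.8 ± 4.86 CPM (log2 fold change -0.87 ± 0.17 SE, adjusted p = 0.00177).

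Among the effectors, Rabep2, which binds Rab4 and Rab5 on early endosomes, measured 3.06, 1.33 and 3.03 CPM at PND 13, 2.82, 1.90 and 2.43 in PND 16 small, 0.736, 0.829 and 0.796 in PND 16 large and 0.600, 0.757 and 0.698 at PND 40. All competent pools were below all non-competent pools (log2 fold change -1.71 ± 0.28 SE, adjusted p = 0.000476). Rims2, a Rab3 effector at sites of regulated exocytosis, measured 3.15, 3.44 and 0.942 CPM at PND 13, 2.77, 6.30 and 10.3 in PND 16 small, 8.92, 10.9 and 9.79 in PND 16 large and 13.2, 8.999 and 6.69 at PND 40. The groups overlapped (log2 fold change 1.13 ± 0.41 SE, adjusted p = 0.0497), and leaving out any pool but PND 16 small replicates 2 and 3 ended the call (adjusted p = 0.0501 to 0.101), as did leaving out the 3 pools of high granulosa marker level (0.85, adjusted p = 0.141). Rab11fip4, a Rab11 effector, measured 79.2, 79.0 and 51.7 CPM at PND 13, 37.9, 101 and 27.0 in PND 16 small, 201, 188 and 147 in PND 16 large and 125, 73.7 and 81.4 at PND 40. It was highest in PND 16 large, and PND 40 overlapped with PND 13 (log2 fold change 1.12 ± 0.35 SE, adjusted p = 0.0304). The call ended without PND 13 replicate 3, any PND 16 large pool, PND 40 replicate 1 or PND 16 small replicate 1 (adjusted p = 0.0516 to 0.0699).

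**Figure D5:**
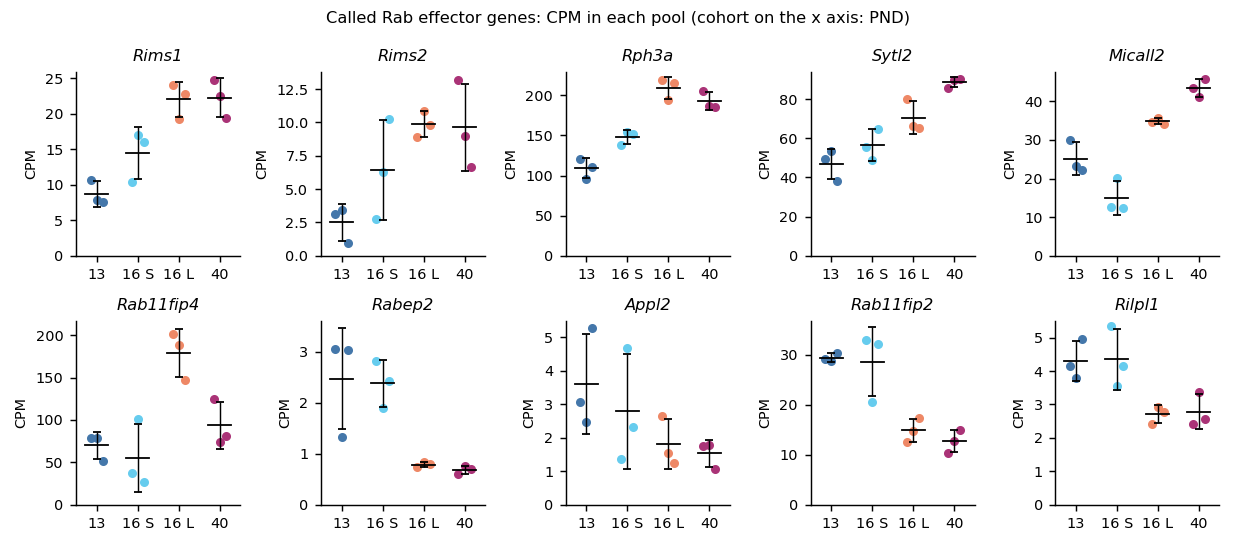
CPM in each pool by cohort (16 S and 16 L are PND 16 small and large) for the 10 Rab effector genes called in competent vs non-competent oocytes, with mean and SD, each panel on its own scale from 0. Rph3a, Sytl2, Rims1 and Micall2 are higher in every competent pool than in every non-competent pool, and Rabep2, Rab11fip2 and Rilpl1 are lower in every one, while Rab11fip4 peaks in PND 16 large at 147 to 201 CPM.

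The other 7 called effectors are named after their values were seen. Rph3a (rabphilin), which binds Rab3 and Rab27 on secretory vesicles, measured 120.4, 96.0 and 111 CPM at PND 13, 138, 154 and 151 in PND 16 small, 219, 194 and 215 in PND 16 large and 205, 187 and 185 at PND 40, with every competent pool higher (log2 fold change 0.64 ± 0.11 SE, adjusted p = 0.000532). It fell just under 1.5-fold without PND 13 replicate 2 (0.57, adjusted p = 0.000541). Sytl2, a Rab27 effector that docks vesicles at the plasma membrane, measured 49.2, 53.3 and 38.3 CPM at PND 13, 55.6, 48.7 and 65.0 in PND 16 small, 80.0, 66.3 and 65.3 in PND 16 large and 85.5, 89.95 and 90.2 at PND 40, again without overlap (log2 fold change 0.62 ± 0.12 SE, adjusted p = 0.00162). It fell under 1.5-fold without PND 13 replicate 3 (0.55) and without the 3 pools of high granulosa marker level (0.46). Rims1, the paralog of Rims2, was at 22.2 ± 2.34 CPM in competent and 11.6 ± 4.06 CPM in non-competent oocytes (log2 fold change 0.94 ± 0.19 SE, adjusted p = 0.00225). Micall2, which binds Rab8 and Rab13, was at 39.2 ± 4.96 and 20.1 ± 6.77 CPM (log2 fold change 0.96 ± 0.19 SE, adjusted p = 0.00194), and its call was kept in every fit that left out 1 pool, as was that of Rims1.

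On the lower side, Rab11fip2, another Rab11 effector, was at 13.8 ± 2.35 CPM in competent and 29.0 ± 4.44 CPM in non-competent oocytes, without overlap (log2 fold change -1.07 ± 0.14 SE, adjusted p = 9.17e-05). Rilpl1, which binds Rab8 and Rab10, was at 2.75 ± 0.374 and 4.33 ± 0.689 CPM (log2 fold change -0.65 ± 0.18 SE, adjusted p = 0.0131) and fell just under 1.5-fold without PND 16 small replicate 1 (-0.58, adjusted p = 0.0343), and without the 3 pools of high granulosa marker level its log2 fold change was -0.68 (adjusted p = 0.053). Appl2, a Rab5 effector, was at 1.67 ± 0.561 and 3.19 ± 1.503 CPM with overlap (log2 fold change -0.93 ± 0.33 SE, adjusted p = 0.0463). Its call ended when any of 8 pools was left out (PND 13 replicates 1 and 3, PND 16 large replicates 2 and 3, any PND 40 pool and PND 16 small replicate 2, adjusted p = 0.0703 to 0.127), and without the 3 pools of high granulosa marker level its log2 fold change was -0.28 (adjusted p = 0.619).

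The 4 called effectors that bind Rab3 or Rab27 (Rims1, Rims2, Rph3a and Sytl2) were all on the higher side, and Rab3a and Rab27a were not called by competence. The other tested genes of the list that bind these GTPases (Sytl4, Myrip, Rph3al, Sytl5, Mlph and Unc13d) did not pass both criteria: Sytl4 differed by 0.29 ± 0.06 SE (adjusted p = 0.00265), Myrip by 0.17 ± 0.07 SE (adjusted p = 0.0826), Rph3al by 0.12 ± 0.07 SE (adjusted p = 0.172), Sytl5 by 0.30 ± 0.30 SE (adjusted p = 0.474), Mlph by 0.81 ± 0.58 SE (adjusted p = 0.316) and Unc13d by 0.09 ± 0.78 SE (adjusted p = 0.945) on the log2 scale. These genes are singled out after their values were seen, and no test of them as a group was made.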

How the data were processed

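RNA-seq of 12 pools of oocytes was analysed from the deposited raw count per gene and pool, which the authors made from rRNA-depleted, directional libraries without molecular identifiers. The submitters' processing notes name STAR, HTSeq, DESeq2 and the build mm10 without roles, and the strand setting of the counting is not given in the sources used here. A deposited table of log2 normalized values of the same counts was not used.

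Genes were filtered with filterByExpr (minimum count 10), scaled by TMM and tested with edgeR 4.0.16 (quasi-likelihood, robust, all 12 pools in 1 fit per design) in R 4.3.3, with Benjamini-Hochberg adjustment over 13943 genes. SE was approximated from the fold change on the log2 scale and the square root of its F statistic. CPM uses the counts of the filtered genes, and lengths and overlaps are those of GENCODE M21 (GRCm38). DESeq2 1.42.0 was an alternative. Paralog ratios added 0.5 to each count. The fits were tested on simulated data.

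Named were members called in any of 5 comparisons, the 5 highest per kilobase, 7 of known role (Rab3a, Rab5a, Rab6a, Rab7, Rab11a, Rab14 and Rab27a) and, in each regulator list, the 3 called genes of largest change by competence. Members and lists were chosen with earlier results of these data known. The study describes the 3 pools of a condition as independent and drawn from 3 mice, and the labels tie no pool to an animal. The p-values measure the spread between pools. Those by competence treat the pools of a group as independent, although competence was assigned by cohort.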

Additional observations from a re-analysis of the deposited data

Results flagged for a closer look

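Of 44 groups of 6 pools examined for 22 named members, 3 held a pool whose gap to its nearest neighbour was large for the range of its group by Dixon's criterion, where chance gives about 1 in 20 groups. PND 13 replicate 2 had 4.22 CPM of Rab11b, whereas the other non-competent pools had 8.36 to 10.8 CPM. PND 16 small replicate 1 had 6.85 CPM of Rab30, whereas the other non-competent pools had 3.65 to 4.39 CPM. PND 40 replicate 3 had 200.5 CPM of Rab10, whereas the other competent pools had 185.7 to 189.9 CPM. The cause of these values was not tested.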

How the results depend on the processing

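Of 72 gene values followed over the settings, 26 kept their side of both thresholds in every one, 25 lost a call in at least 1, 21 gained one, and 0 changed sign. Genes with an adjusted p of at most 0.05 but under 1.5-fold gain a call by construction when the fold criterion is dropped. Most of the gains were of this kind. In competent vs non-competent oocytes 10 members were called. Percentages in brackets are the share of all genes called in the same fit. There were 16 without the fold criterion (30.7%) and 5 without the 3 pools of highest granulosa marker level (10.7%). The latter setting was added after the data were seen. With 1 pool left out there were 8 to 10 (11.9% to 15.6%). In PND 40 vs PND 13 the 11 calls became 21 without the fold criterion (33.1%). With 1 pool left out they were 7 to 10 (13.6% to 20.4%), the lowest without PND 13 replicate 3. In PND 16 large vs PND 16 small the 3 calls became 5 with DESeq2 (8.41%) and 5 without the fold criterion (12.3%). They became 1 without the count filter (3.94%) and 0 in a fit of the 6 pools compared (3.63%). With 1 pool left out they were 0 to 5 (2.33% to 7.99%). In PND 40 vs PND 16 large the 1 call became 2 with DESeq2 (5.61%) and 2 without the 3 pools (3.98%). It became 3 without the fold criterion (6.83%) and 4 in the fit of 6 pools (8.19%). It became 0 without the count filter (2.4%) and 0 with any 1 pool left out (1.72% to 2.13%). In PND 16 small vs PND 13 the 0 calls became 1 with DESeq2 (2.59%), and 0 to 3 with 1 pool left out (0.0281% to 5.7%). The other settings (RLE and total-count scaling, a minimum count of 50, and a contrast of cohort means) stayed within 1.5 times these counts. The causes were not tested.

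With the replicate number as a block, the 1 call in PND 40 vs PND 16 large became 0 (2.81% of all genes). The other comparisons had 9, 9, 2 and 0 calls in the order above, beside 13.3%, 17.3%, 5.25% and 0.0717% of all genes. In 0 of 18 same-number pairs did deviations from the cohort means correlate above 0.1 (range -0.442 to 0.0753). Pools of different numbers were not compared in this way, and the labels do not say whether pools of the same number belong together.

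Total-count scaling shifted the median of all genes in PND 16 small vs PND 13 from -0.0255 to -0.124 on the log2 scale and the higher calls from 25 of 52 to 6 of 25.

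With 1 pool left out, the difference in log2 ratio ran from -0.432 to -0.311 for Rab5a/Rab5c and 0.939 to 1.23 for Rab11a/Rab11b, which passed the test in 4 and 5 of 12 cases, and from -0.280 to -0.0587 for Rab8a/Rab8b and 0.0732 to 0.245 for Rab4a/Rab4b. It changed sign for Rab27a/Rab27b (-1.30 to 0.214, positive at 0.214 and 0.0840) and for Rab6a/Rab6b (-0.547 to 0.744, negative at -0.186, -0.0811, -0.547, -0.224 and -0.245). The 10 members not tested had at most 24 counts in any pool, too few for a statement on them.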
